A study of Drosophila melanogaster with 3 samples.

Results

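The genes described here are 9 core members of the Drosophila Polycomb group: ph-p, ph-d, Pc, Psc, Sce, Scm, E(z), esc and Su(z)12. They were chosen by name, as 9 of the 13945 protein-coding genes annotated on the main chromosome arms, and all 9 were found in the annotation. The measurement was chromatin immunoprecipitation with sequencing of lilli-eGFP, a fusion of eGFP to the C terminus of lilli (Lilliputian), made with an antibody against GFP. Each of the 3 biological replicates was a collection of whole embryos of mixed sex, 0 to 24 h old, from 1 stable transgenic line (strain lilli-GFP). These replicates form the only group, so values are compared between genes and between replicates, not between conditions. The deposited lists on the dm6 genome held 6970 optimal peaks, 30000 peaks from the pooled replicates and 30000 peaks for each replicate.

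Polycomb group proteins keep developmental genes such as the Hox genes silent in the cells where they must stay off. They work in 2 main complexes: Polycomb repressive complex 2 (PRC2) methylates histone H3 on lysine 27, and Polycomb repressive complex 1 (PRC1) binds that mark, ubiquitylates histone H2A and compacts chromatin. Lilli is the fly AFF family protein and the scaffold of the super elongation complex, which helps paused RNA polymerase II move into productive elongation. The question addressed is where lilli-eGFP lay on the genes that encode the Polycomb machinery itself.

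Lilli-eGFP peaks were present at the promoters of 6 of the 9 genes: ph-p, ph-d, Pc, E(z), esc and Su(z)12 had an optimal peak with its summit within 500 bp of a transcript start. Over all protein-coding genes the share was 31.3%. Psc, Sce and Scm had none. E(z), esc and Su(z)12, which encode core subunits of PRC2, were among the 6. Of the PRC1 genes, ph-p, ph-d and Pc were among them and Psc and Sce were not. Since whole embryos were used, weak signal in every cell and strong signal in few cells cannot be told apart, and no input or untagged library was analysed here.

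The range within the family was wide. By the signal value that the authors' caller gave each peak, which is used here to rank peaks within a list, ph-p had rank 17 in the pooled list, E(z) 991, Su(z)12 1399, ph-d 3367, esc 4296, Pc 6758, Scm 7091 and Psc 8226. Sce had no promoter peak in any list. Since the optimal list is exactly the strongest 6970 pooled peaks, Pc lay 212 places inside its end and Scm 121 places outside it.

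**Figure D1:**
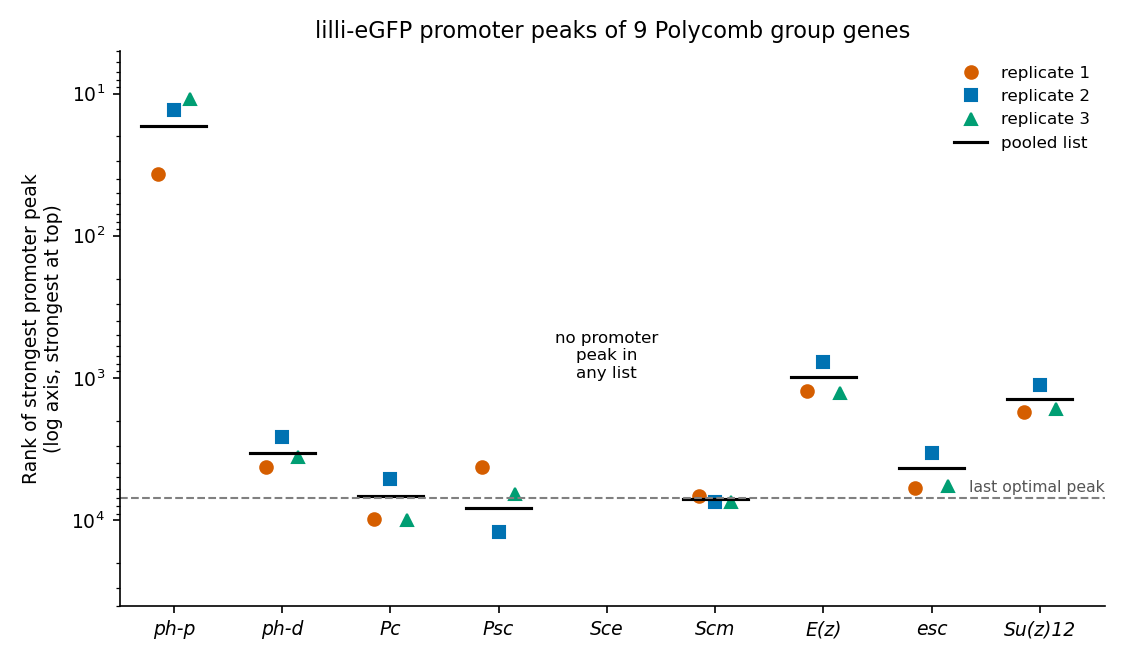
Rank of the strongest peak within 500 bp of a transcript start for each gene (vertical log axis, strongest at the top), in replicates 1, 2 and 3 (circle, square, triangle) and in the pooled list (black bar). The dashed line marks rank 6970, the last optimal peak, and ph-p lies at ranks 11 to 37 in the replicates, above every other gene shown.

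The polyhomeotic paralogues ph-p and ph-d encode PRC1 subunits whose SAM domain lets them polymerise. They lie side by side on the X chromosome, on the minus strand, ph-p at X:2126210-2138371 and ph-d at X:2115727-2123286, with 2923 bp between them. Their longest annotated proteins have 1589 residues (ph-p) and 1537 residues (ph-d), with 1351 identical among 1513 aligned positions (89.3%). The strongest ph-p peak spanned X:2137136-2137602, and its summit lay in an intron of the longest transcript, 460 bp upstream of an inner start.

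An alignment of both loci found 4 blocks of at least 300 aligned bases. The summit of the strongest ph-p peak fell between 2 of these blocks, in a stretch of 208 bp (X:2137265-2137472) to which only 15 bp (X:2123697-2123711) correspond at ph-d. The summit lay inside this stretch in the pooled list and in each of the 3 replicates, 50 bp to 65 bp from one of its edges. The stretch and the matching place at ph-d are shown because the strongest summit of the 9 genes lies in one and has no aligned place in the other. Both are given on the strand of the genes, from the RefSeq copy of the dm6 assembly. The ph-d sequence (X:2123637-2123771) holds its 15 bp with 60 bases on either side. None of the 6 short words described further on occurs in either, so no base is in capitals.
ph-p: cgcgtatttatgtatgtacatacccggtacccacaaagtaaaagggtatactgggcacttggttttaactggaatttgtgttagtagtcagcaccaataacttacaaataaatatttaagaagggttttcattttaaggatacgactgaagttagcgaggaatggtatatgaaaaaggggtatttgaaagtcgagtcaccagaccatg
ph-d: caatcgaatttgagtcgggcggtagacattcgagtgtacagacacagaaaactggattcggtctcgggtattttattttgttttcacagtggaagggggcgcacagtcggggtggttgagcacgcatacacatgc

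The ph-p gene carried far stronger signal than ph-d. Its strongest promoter peak had rank 37 in replicate 1, 13 in replicate 2 and 11 in replicate 3, against 4237, 2611 and 3593 for ph-d. With this window of 500 bp the ph-p ranks, 11 to 37, thus all lay ahead of the ph-d ranks, 2611 to 4237. Within each list, where the values share a scale, the ph-p signal was 671, 1124 and 1016 in replicates 1, 2 and 3, against 63.8, 92.7 and 59.0 at ph-d. The ratio of ph-p to ph-d was therefore 10.5, 12.1 and 17.2 in these replicates, and 13.0 in the pooled list (2690 against 207). The difference in log10 rank, ph-p minus ph-d, was -2.29 ± 0.23 (SD, n = 3), in the same direction in 3 of 3 replicates. An exact two-sided sign-flip permutation test gave p = 0.25, the smallest value that 3 replicates allow, so this design cannot reach the usual threshold.

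The order depends on how far from a start a peak may lie. With a window of 250 bp, the ph-p summits of rank 17 and 96, which lie 460 bp and 397 bp from a start, were both excluded, and the best remaining ph-p peak, 19 bp downstream of its innermost start, had rank 4303 in the pooled list, against 3367 for ph-d. The difference in log10 rank was then 0.16 ± 0.08 (SD, n = 3), and ph-d had the better rank in each replicate: the ph-p ranks were 7255, 3106 and 5357, against 4237, 2611 and 3593 for ph-d. With 1000 bp a stronger ph-d peak came into range, and the difference was -1.80 ± 0.35 (SD, n = 3). Close to an annotated start the paralogues thus had peaks of the same order of rank, and the large difference lay in the peaks 397 bp and more away.

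**Figure D2:**
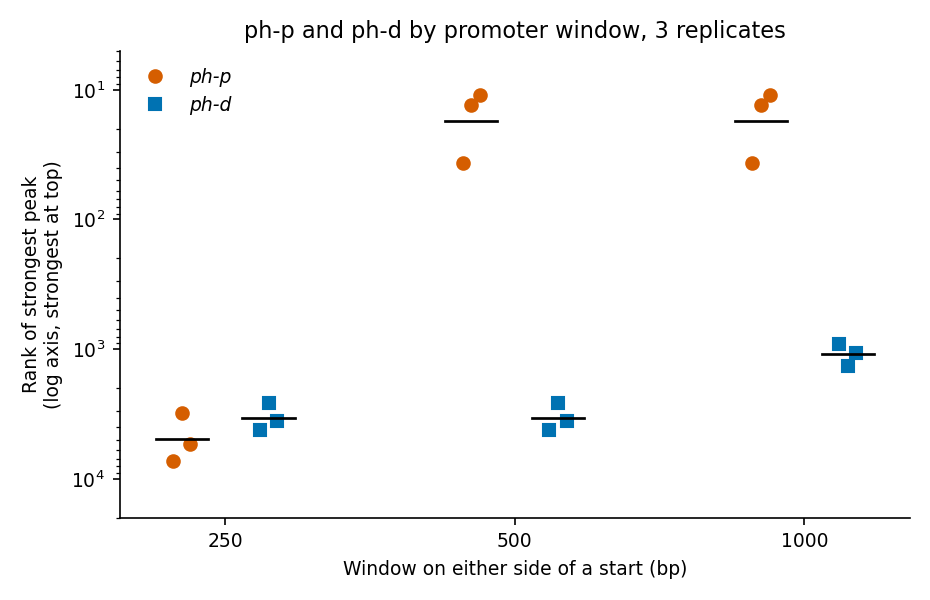
Rank of the strongest peak (vertical log axis, strongest at the top) of ph-p (circles, left) and ph-d (squares, right) in the 3 replicates, for windows of 250, 500 and 1000 bp on either side of any transcript start; bars are means of log10 rank. The ph-p gene lies below ph-d at 250 bp and above it at 500 and 1000 bp.

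That wider view shows peaks on both sides of the paralogues. The ph-p gene held 5 optimal summits over its 12162 bp, or 4.11 per 10 kb; 149 genes (1.07%) held as many or more. Besides the strongest one they had rank 96 (in the 5' UTR, 397 bp downstream of the outermost start), 952 and 2758 (both intronic, 1263 bp and 2161 bp downstream of the innermost start) and 4303. All 5 were found in each replicate: the peak of rank 96 in the pooled list had rank 64, 99 and 150 in replicates 1, 2 and 3, and the peak of rank 952 had 1410, 690 and 955. Those of rank 2758 and 4303 stayed between 2945 and 7255.

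The ph-d gene held 2 optimal summits over its 7560 bp, or 2.65 per 10 kb. The stronger one, X:2123059-2123235, lay 98 bp downstream of the outer start in the 5' UTR. The other, of rank 4681, lay in an intron 414 bp upstream of the inner start, and had rank 5798, 5088 and 4977 in replicates 1, 2 and 3. The strongest peak near ph-d lay outside the gene, in the 2923 bp that separate it from ph-p: X:2123874-2124188, rank 1101, with its summit 746 bp upstream of the ph-d start and 2178 bp beyond the end of ph-p. It had rank 909, 1341 and 1065 in replicates 1, 2 and 3, better than any peak inside ph-d in every replicate.

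Placing the aligned blocks side by side relates these peaks to each other. The block under the rank 96 peak of ph-p (81.0% identity over 358 aligned bases) puts its summit at a place 28 bp from an optimal ph-d summit of rank 6467, which lies 965 bp upstream of ph-d. The upstream ph-d summit of rank 1101 lies in a block of 70.5% identity over 387 bases, and its counterpart at ph-p is 139 bp from the rank 96 summit. The promoter summit of ph-d lies in a block of 90.7% identity over 529 bases, and its counterpart at ph-p is 151 bp from the weak rank 4303 summit. The longest block, 92.0% identity over 4480 bases, covers much of the coding region and held no optimal summit in either gene. Whether reads from this block can be assigned to one of the paralogues was not tested. The summits of rank 17, 952, 2758 and 4303 at ph-p, and those of rank 4681 and 6467 at ph-d, lay in no block.

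**Figure D3:**
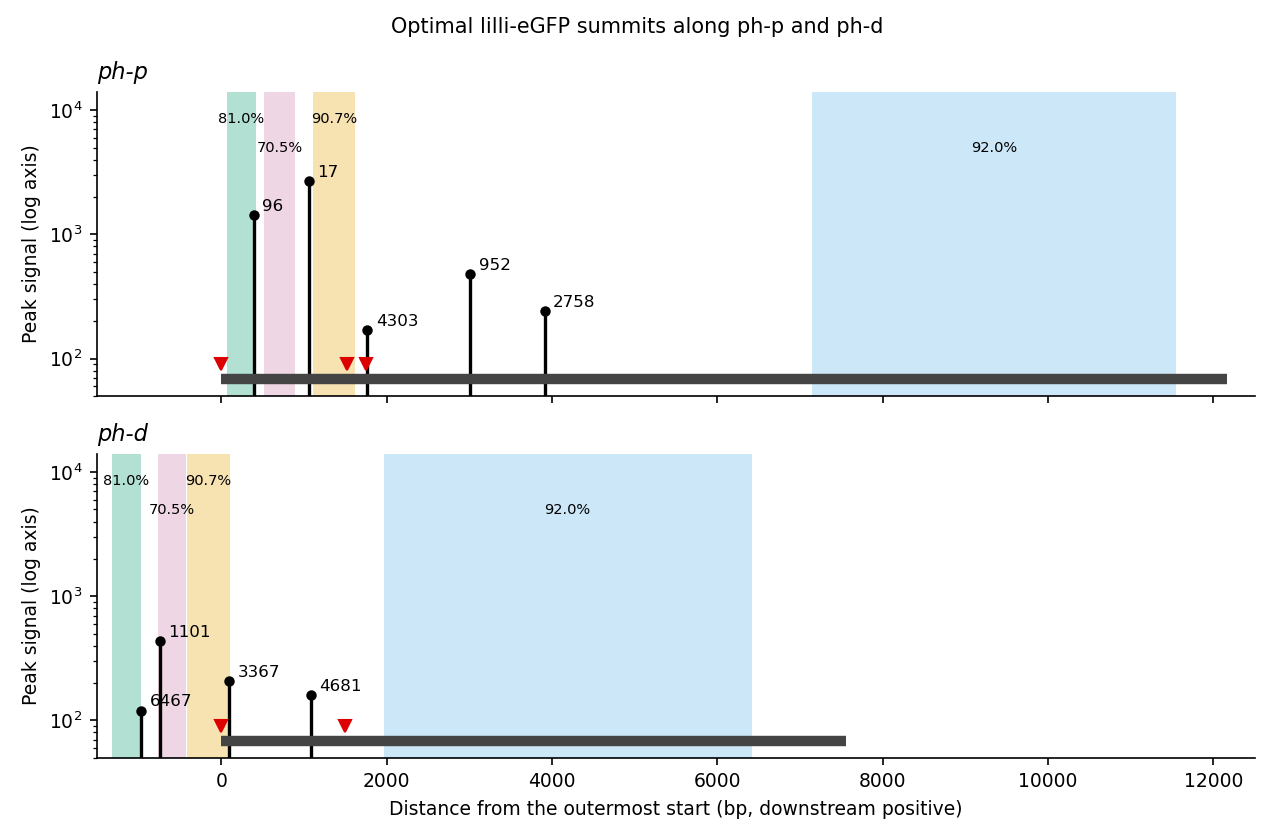
Optimal summits of ph-p (top) and of ph-d with the 2 summits upstream of it (bottom) by distance from each gene's outermost start in bp; stem height is the peak signal in the pooled list (log axis) and the number is its rank. Grey bars are the genes, red triangles transcript starts, and shaded bands of one colour are the blocks that align between the loci with their percent identity; the rank 17 stem stands in the gap between 2 bands at ph-p.

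Because near-copies can share reads, the sequence around each peak was checked for uniqueness in the genome. Over the whole gene, 66.9% of 31-base words in ph-p and 66.5% in ph-d occurred at a single place. In the windows reaching 200 bp on either side of a summit, the share was 91.9% at the strongest ph-p peak, 99.2% at the ph-d promoter peak and 100% at the 7 other optimal summits in and between both genes, and with 50-base words it was 100% at all of them. Each 50-base word around the summits compared above thus occurred once in the reference genome. Only exact matches were counted, and whether reads there were assigned to the right paralogue was not tested. How the authors handled reads with several matches is not given in the sources used here.

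The genes whose promoter ranks most resembled those of ph-p over the 3 replicates were larp, with a summed difference in log10 rank of 0.59, and the gene pair Fbw5 and CG9147, which share a peak, with 0.60. For ph-d they were tilB and CG14615, which also share a peak, and CG31038, each with 0.04. These are likenesses of rank over 3 replicates and nothing more.

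E(z), esc and Su(z)12 encode core subunits of PRC2. E(z) encodes the histone methyltransferase, Su(z)12 a subunit that the enzyme needs for activity, and esc a WD40 protein that reads the methylated tail. All 3, like ph-p and ph-d, had a promoter peak among the strongest 6970 of every replicate.

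E(z), at 3L:10634575-10638130 on the minus strand, had its summit 25 bp downstream of the outer start, in the 5' UTR. The peak (3L:10637960-10638239) had rank 1240, 776 and 1281 in replicates 1, 2 and 3, a mean of 1099 ± 280.5 (SD, n = 3), and the 3 summits lay within 14 bp. Su(z)12, at 3L:19918242-19923462 on the minus strand, had its strongest summit 99 bp downstream of its start, in the 5' UTR. That peak (3L:19923247-19923388) had rank 1747, 1114 and 1665 in replicates 1, 2 and 3, a mean of 1509 ± 344.2 (SD, n = 3). A second optimal summit of rank 2629 lay 107 bp upstream of the same start; it had rank 2810 and 2862 in replicates 1 and 2 but 13029 in replicate 3. E(z) ranked better than Su(z)12 in every replicate, while the range of each gene overlapped that of the other.

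Both peaks lay at divergent promoters and counted for a neighbour as well. The E(z) summit was also within 500 bp of the start of Cnep1r2, 15 bp away on the plus strand, and both Su(z)12 summits were within 500 bp of the start of Pfdn6, 208 bp away on the plus strand. The lists cannot assign such a peak to one gene of the pair. The bases between the starts, shown because each pair shares them, are given on the strand of the Polycomb gene, for E(z) at 3L:10638131-10638145 and for Su(z)12 at 3L:19923463-19923670, from RefSeq on dm6. The capitals mark the core of the Pho site, GCCAT, here on the opposite strand.
E(z): acgggctgcgtttct
Su(z)12: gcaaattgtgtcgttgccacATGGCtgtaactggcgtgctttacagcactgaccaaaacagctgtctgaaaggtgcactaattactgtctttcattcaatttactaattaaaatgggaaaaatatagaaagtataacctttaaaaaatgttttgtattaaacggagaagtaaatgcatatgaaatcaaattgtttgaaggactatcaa

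The esc gene, at 2L:11827204-11829405 on the minus strand, lies inside the much longer gene Pde1c. Its peak (2L:11829236-11829671) had the summit 49 bp upstream of the start, and ranked 5926, 3379 and 5797 in replicates 1, 2 and 3, a mean of 5034 ± 1435 (SD, n = 3). It ranked below E(z) and Su(z)12 in each replicate, and its 3 summits lay within 12 bp. No other gene started within 500 bp of it.

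Pc and Scm fell on opposite sides of the end of the optimal list, and the replicates do not separate them in that order. Pc encodes the chromodomain protein that binds methylated H3, and Scm a protein with MBT repeats and a SAM domain that binds polyhomeotic. Pc, at 3L:21306138-21318020 on the minus strand, had an optimal summit 43 bp upstream of its start, with rank 9797, 5120 and 10018 in replicates 1, 2 and 3 (mean 8312 ± 2766, SD, n = 3). It was among the strongest 6970 peaks of replicate 2 alone. Scm, at 3R:9633359-9637611 on the minus strand, had a summit 12 bp upstream of its start in the pooled list, and ranked 6810, 7445 and 7465 (mean 7240 ± 372.5, SD, n = 3). Scm was thus the steadier gene, and ranked better than Pc in replicates 1 and 3. The pooled signals were 115 at Pc and 110 at Scm, against 112 for the last optimal peak, so the call that parts them rests on a small difference.

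The sequence before both starts is shown because these peaks straddle the end of the list. Each run is the 120 bases before the start on the strand of the gene, for Pc at 3L:21318021-21318140 and for Scm at 3R:9637612-9637731, from RefSeq on dm6. Capitals mark CAGGTA, bound by the early activator Zelda, and TATCGATA, the DNA replication-related element. The Scm run holds both, and the Pc run holds none of the words searched.
Pc: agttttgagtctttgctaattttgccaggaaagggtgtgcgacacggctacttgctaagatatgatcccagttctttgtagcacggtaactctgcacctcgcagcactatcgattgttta
Scm: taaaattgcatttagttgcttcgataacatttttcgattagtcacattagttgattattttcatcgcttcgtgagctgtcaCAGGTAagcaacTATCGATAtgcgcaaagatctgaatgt

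Inside the annotated Pc gene 23.7% of 31-base words were unique in the genome, against 100% in the window around its promoter summit. The gene body held no optimal summit, and 2 lower-ranked pooled summits in its 3' UTR (ranks 20563 and 24202). For Psc, Sce, Scm, E(z), esc and Su(z)12 the whole gene was unique.

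Psc and Sce encode the RING-finger proteins of PRC1; Sce is the ubiquitin ligase for histone H2A and Psc its partner, which also compacts chromatin. They differed from the other genes, each in its own way. Psc, at 2R:12965997-12980994 on the minus strand, had its strongest peak in an intron, 5075 bp downstream of the inner start (rank 1350 in the pooled list). This peak ranked 1194, 2031 and 1406 in replicates 1, 2 and 3, and its summits lay 5059 bp to 5077 bp from that start. The promoter peak of Psc was weaker, with rank 8226 in the pooled list and 4248, 12081 and 6571 in replicates 1, 2 and 3 (mean 7633 ± 4023, SD, n = 3). Its summits lay up to 407 bp apart, so they need not belong to 1 peak.

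Sce, a gene of 1599 bp at 3R:27680431-27682029, had no summit within 500 bp of its start in any list. Its only peaks lay in a coding exon: rank 23496 in the pooled list, none in replicate 1, 27308 in replicate 2, and 23517 and 25712 in replicate 3. All of these stand far below the optimal list, in lists that include background by design.

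**Figure D4:**
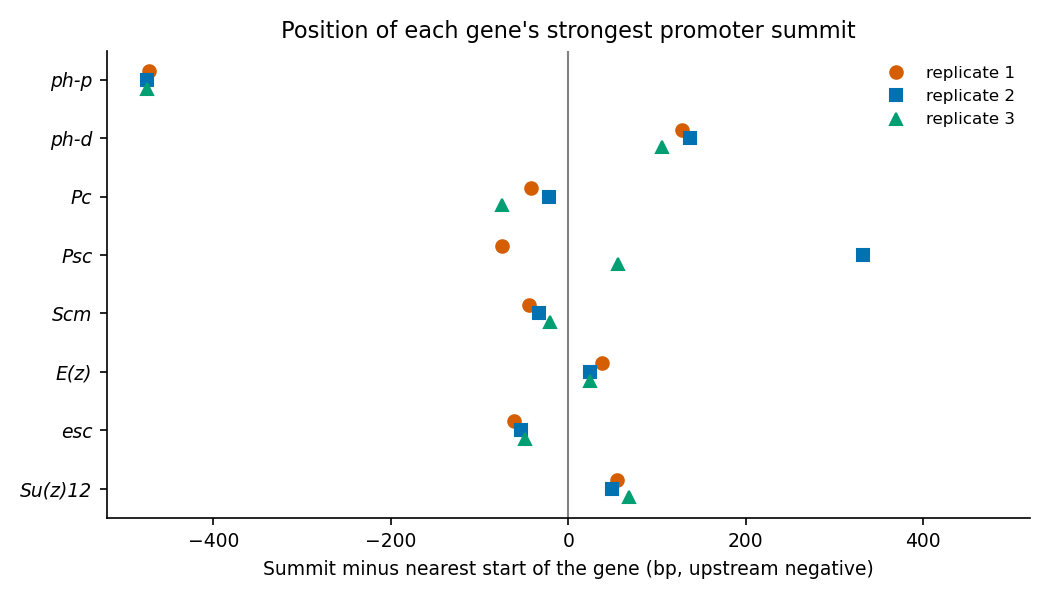
Distance of each gene's strongest promoter summit from the nearest of its own starts (bp, upstream negative) in replicates 1, 2 and 3 (circle, square, triangle). The ph-p gene stands alone at 473 to 475 bp upstream of an inner start, Psc summits are scattered over 407 bp, and the summits of the other 6 genes lie between 75 bp upstream and 137 bp downstream.

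Summit positions were otherwise stable. The outermost of the 3 replicate summits lay 2 bp apart at ph-p, 31 bp at ph-d, 53 bp at Pc, 23 bp at Scm and 19 bp at Su(z)12. The ph-p summit was the most closely placed of all 8 genes with a promoter peak, yet it was also the one farthest from a start.

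The family's count moved little with the window and more with the number of peaks taken. Within 250 bp of a start 6 of the 9 genes had an optimal summit, against 26.0% of all genes, and within 1000 bp 6 of 9, against 35.0%. At a promoter or in the gene body 7 of 9 had one, against 35.8%; Psc was added. Over the whole pooled list, 8 of the 9 genes had a promoter peak (all but Sce), as had 7673 of the 13945 protein-coding genes. With the strongest 3485 optimal peaks alone, 4 of 9 had one (ph-p, ph-d, E(z) and Su(z)12), against 19.2% of all genes. Among the strongest 6970 peaks of single replicates, the count was 7 in replicate 1 (30.5% of all genes), 6 in replicate 2 (31.7%) and 6 in replicate 3 (30.1%), a mean of 6.33 ± 0.577 (SD, n = 3). In all 3 replicates it was 5 of 9, namely ph-p, ph-d, E(z), esc and Su(z)12, against 24.6% of all genes. Of the 6 genes with an optimal promoter summit, Pc was the one not among them. Psc (replicates 1 and 3) and Scm (replicate 1) were called in some replicates only. Pc was also lost in each case when optimal peaks had to recur in both remaining replicates after one was left out.

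The median rank of the 9 genes, with Sce placed last, was 4296 in the pooled list, against 20926 over all protein-coding genes and 5738 over the 7673 genes that had a promoter peak in that list. In replicates 1, 2 and 3 the median of the 9 genes was 4248, 3379 and 5797, against 6017, 5772 and 5846 over all genes with a promoter peak. In replicate 3 the median of the 9 genes thus lay close to that of all genes with a promoter peak. The sets are unlike, since the 9 include Sce, which had no promoter peak.

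A wider list of 21 other Polycomb genes, which holds DNA-binding recruiters, accessory subunits and related regulators, gave a like share. Of these, 15 had an optimal promoter summit: phol, Sfmbt, Asx, Su(z)2, Jarid2, jing, Caf1-55, Kdm2, RYBP, Spps, cg, Dsp1, lolal, mxc and E(Pc). The 6 without one were pho, calypso, Pcl, escl, sxc and crm. Over all protein-coding genes, 31.3% had an optimal promoter summit. When each summit counted only for the gene of the nearest start, 12 of the 21 had one, against 23.6% of all genes. Then phol, Jarid2 and mxc dropped out, since their summits lay nearer the start of another gene. The counts among the strongest peaks of replicates 1, 2 and 3 were 14, 15 and 15, against 30.5%, 31.7% and 30.1% of all genes. In all 3 replicates the count was 11 of 21, against 24.6% of all genes. The best rank belonged to Sfmbt, a partner of the DNA-binding protein Pho (609 in the pooled list), followed by the histone demethylase gene Kdm2 (1034) and lolal (1086). None of them came near ph-p. In the pooled list the second best of the 9 core genes, E(z), stood below Sfmbt alone among these 21, as it did in replicates 1 and 2. In replicate 3, E(z) (1281) also stood below lolal (792) and Kdm2 (915).

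Pairs of related genes differed in pooled rank, but not always in the same order in the replicates. The genes pho and phol, paralogues whose proteins bind DNA at Polycomb response elements, ranked 7425 and 5277 in the pooled list. The phol summit in that list lay nearer the start of another gene. Su(z)2, the paralogue of Psc, ranked 5234 at its promoter in the pooled list, against 8226 for Psc; in single replicates Su(z)2 ranked 5851, 3926 and 7456, so Psc was ahead in replicates 1 and 3. The gene escl, the paralogue of esc, ranked 7424. In single replicates pho ranked 9946, 10814 and 6377 in replicates 1, 2 and 3, and phol 6004, 12372 and 3334, so their order turned round in replicate 2.

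Promoter words were searched on both strands, from 250 bp before to 50 bp after each start; no word contains another. GCCAT, the core of the Pho site, was present at 7 of the 9 genes (all but ph-d and Pc), against 48.0% of all genes and 41.1% of all promoters. TATAAA, the word of the TATA box, was present at 6, against 51.3% of genes and 42.2% of promoters. Each word was counted anywhere in the stretch, so a match need not be a working element. GAGAG, bound by GAGA factor, was present at 4 (ph-p, ph-d, Psc and E(z)), against 36.4% and 33.2%. GGTCACAC, the core of Ohler motif 1, was present at 3 (Sce, E(z) and esc), against 8.7% and 6.7%. CAGGTA was present at 2 (Psc and Scm), against 8.4% and 6.4%, and TATCGATA at Scm alone, against 10.2% and 8.0%. GGTCACAC occurred both at E(z) and at Sce, which has no promoter peak; no word was set against rank.

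Around the summits the words were sparser, but a shorter stretch was searched, at 1 summit per gene rather than at every start. Each word also had a lower share over all optimal peaks than over all promoters. Of the 6 genes with an optimal promoter summit, 2 (ph-d and E(z)) had GAGAG within 100 bp of the strongest one, against 21.1% of all optimal peaks. The same 2 had the word TATAAA there, against 33.9%, and esc alone had the Ohler motif 1 core, against 3.2%. The Pho core, the Zelda word and the DNA replication-related element occurred at none of the 6, against 26.7%, 4.0% and 5.5% of all optimal peaks. The ph-p summit, the strongest by far, held none of the 6 words in that window.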

How the data were processed

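In 3 biological replicates, per the labels, lilli-eGFP chromatin in sonicated pieces of 200 to 800 bp was pulled down with an anti-GFP antibody. Per the file headers, that is the deposited notes, peaks were called on dm6 against a control for each replicate and for the replicates together, and the optimal list keeps those that pass an irreproducible discovery rate threshold. The sources used here name no aligner, no caller and no versions. The signal of each peak is the authors' deposited value, used for ranks and for ratios within a list. The lists hold no reads, so depth is unknown.

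Computed here: the summit, from the deposited summit offset, was assigned to every gene with a start within 500 bp (Ensembl release 115, same assembly; arms X, 2L, 2R, 3L, 3R and 4; transposable elements left out). Every peak ended within its arm's length in the RefSeq genome. A gene without a promoter peak was placed last in medians. The ph loci, with 1000 bp after the end and 2000 bp before the start, were aligned with blastn 2.17.0 (E-value at most 1e-05) and the proteins with Biopython 1.88. The only test was an exact sign-flip permutation test over replicates; other counts stand beside the share of all genes. The assignment, test and word search were tested on simulated data. Members, lists, words and tests were chosen with earlier results of these data known. Named genes were the 9 members, genes sharing their peaks, nearest neighbours, the other Polycomb list and the 3 genes most alike in rank to ph-p and ph-d. Pde1c, which contains esc, was named after its position was seen. Alternatives changed the window, the number of peaks, the summit, the assignment and the replicates used. Python 3.11.15, numpy 2.4.6, pandas 2.3.3 and matplotlib 3.10.9 were used.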

Additional observations from a re-analysis of the deposited data

How the results depend on the processing

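One result reversed: with a window of 250 bp the ph-p minus ph-d difference in log10 rank was 0.16, in place of -2.29 with 500 bp; the narrower window leaves out the ph-p summits 460 bp and 397 bp from a start. It was -2.21 with ranks among promoter peaks only, -1.80 with 1000 bp, -2.29 with gene bodies, and -2.41 to -2.18 leaving out 1 replicate. Halving the number of peaks to 3485, which by construction calls fewer genes, gave 7 of the 21 other Polycomb genes in place of 15. Over all genes the share was then 19.2% in place of 31.3%. The same cut within each replicate gave a mean of 3.67 of the 9 core genes in place of 6.33. No share of all genes was computed for that cut. The core count with an optimal promoter summit ran from 4 of 9 in the strongest 3485 peaks (19.2% of all genes) to 8 with all pooled peaks (7673 of 13945 genes). It was 5 on leaving out any replicate (24.3% to 25.5%), and 6 with RefSeq starts (31.3%), an alternative chosen after seeing the data. Both annotations hold the same starts for the 9 core genes, so that alternative could not change the core count. With gene bodies it ran from 5 (22.9%) to 9 (60.1%), and was 6 on leaving out any replicate (28.7% to 30.1%). The other list gave 10 to 12 of 21 on leaving out 1 replicate (24.3% to 25.5% of all genes). Depth is unknown, so an absent peak was not detectable here rather than shown to be absent.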

Other observations

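Near Pc, whose own promoter peak was weak, an optimal peak of rank 91 lay beyond the 3' end of Pc. It was within 500 bp of the divergent starts of the overlapping neighbour CG7632 and of CG11309. On the other side, Rab26 had rank 4435.

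Kdm2 held 7 optimal summits over 10751 bp (6.51 per 10 kb), more per length than ph-p, and 63 genes (0.452%) held as many or more. The much longer jing held 5 over 119787 bp (0.417 per 10 kb).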
